A study of Mus musculus with 9 samples.

Results

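The wild-type late blastocyst transcriptome is described here from the 3 libraries titled WT, out of 9 in the series. A gene was taken into this baseline when its value reached 1 FPKM in each of the 3 libraries, which 9251 of the 16070 listed genes did (57.6%). FPKM scales fragments to transcript length and to the mapped fragments of the library, so it is a level per length. Levels of different genes are set side by side below, but each depends on the transcript assumed for the gene, which is not known here. The WT libraries came from wild-type E4.5 mouse embryos on the C57BL/6 background, grown in vitro and taken 4.5 days after microinjection. The labels give the material both as an embryo and as cDNA made from a single cell, and no label states whether the 3 libraries came from different embryos, so the spread given here may be technical. The other 6 libraries came from edited embryos and enter no value below. All values are given in the order replicate 1, replicate 2, replicate 3, followed where useful by mean ± SD (n = 3).

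The late blastocyst holds the first cell types that separate in the mouse embryo. The trophectoderm is an outer epithelium that pumps fluid into the cavity and later builds the placenta, and Hippo signalling through Yap, Taz and Tead4 helps to set its fate. The inner cell mass divides into epiblast, which carries Nanog and Pou5f1 and gives rise to the fetus, and primitive endoderm, which carries Gata6, Sox17 and Gata4 and gives rise to yolk sac. Many of the proteins at work belong to families of closely related genes, and which relative a tissue transcribes is part of its identity.

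The 6 markers that define these lineages were read first, as a check of the label. Gata3 (chr2:9857078-9887953), a trophectoderm transcription factor, stood at 277, 318 and 369 FPKM. Cdx2 (chr5:147300900-147307249), which maintains trophectoderm identity, stood at 10.2, 7.13 and 5 FPKM. Both trophectoderm factors were therefore present in every library, with Gata3 lowest and Cdx2 highest in replicate 1. Pou5f1 (chr17:35506032-35510777), a core pluripotency factor, stood at 91.2, 61.3 and 41.9 FPKM. Nanog (chr6:122707489-122714633), the epiblast factor, stood at 56.9, 46.2 and 39.9 FPKM. The pair was ordered alike, with replicate 1 highest and replicate 3 lowest. Gata6, the primitive endoderm factor on chromosome 18, stood at 28.6, 29.0 and 21.7 FPKM. Sox17 (chr1:4490928-4497426), which acts after Gata6 in the same lineage, stood at 0.58, 13.3 and 4.45 FPKM and was the 1 marker outside the baseline. Markers of all 3 lineages were thus present in each library, apart from Sox17 in replicate 1. Because each value is 1 level for a whole library, fewer cells of a type and less RNA per cell cannot be told apart.

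The listed markers of cells that could cling to an embryo were low, but many markers sought were not matched. Those matched were 5 of 12 for oocyte and zona pellucida, 4 of 6 for sperm and 1 of 11 for cumulus and granulosa cells. For fibroblasts 1 of 9 was matched and for blood 2 of 11. Of 5 listed oocyte and zona pellucida genes only Padi6, a maternal effect gene of the egg, was in the baseline, at 1.40, 1.68 and 1.26 FPKM. The 5 oocyte genes summed to between 1.73 and 2.78 FPKM in a library. None of the 4 sperm genes, the 1 cumulus cell gene (Star), the 1 fibroblast gene (Thy1) or the 2 blood genes (Cd3e and Hba-a1) was in the baseline. Of all listed genes 57.6% were. Their sums in a library ran from 0 for fibroblasts to 2.27 FPKM for blood and for sperm. The zona genes Zp2 and Zp3 were each listed at 0 in 1 library and were at most 0.27 FPKM in the others. Transcripts of Uty, Kdm5d, Ddx3y and Eif2s3y, all on the Y chromosome, added up to 30.8, 35.7 and 30.7 FPKM, while Xist, the RNA that coats an inactive X chromosome, was at most 0.43 FPKM.

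The baseline spanned a wide range of levels. Its median gene had a mean of 10.1 FPKM, and the quartiles were 3.98 and 34.5 FPKM. A mean of at least 100 FPKM was reached by 985 genes and a mean of at least 1000 FPKM by 70. Of the listed genes outside the baseline, 1271 reached 1 FPKM in 2 libraries, 1626 in 1 library and 3922 in none, and 993 of the last were listed at 0 in all 3. The genes nearest the threshold show how narrow that border is. Zfp950 (1.19, 1.0002 and 2.06 FPKM) and Basp1 (1.0011, 2.71 and 1.01 FPKM) were just inside it. Tmem39b (0.998, 2.10 and 7.14 FPKM), Rxrg (0.998, 1.12 and 2.999 FPKM) and Cd22 (1.69, 0.996 and 2.10 FPKM) were just outside. Of the baseline genes 9132 (98.7%) matched a RefSeq gene, among them 8380 protein-coding genes, 233 long non-coding RNAs and 421 pseudogenes.

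A small set of genes made up much of the signal. The 20 most abundant genes held 12.8%, 13.3% and 14.3% of all summed FPKM, or 13.4 ± 0.75%. The 100 most abundant held 31.3 ± 0.67%, the 500 most abundant 59.1 ± 0.66% and the 1000 most abundant 72.5 ± 0.71%. These shares differed little between the libraries, as the curves of cumulative share show. Ribosomal protein genes, 88 in number, held 10.7 ± 1.08%, and 36 genes of the mitochondrial genome held 2.84 ± 0.16%. Of the 13 protein genes among the latter 6 were listed at 1.36 to 11.1 FPKM and 7 at 97.1 FPKM or more. Whether the values of these 6 are too low, and with them the mitochondrial share, was not tested.

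**Figure D1:**
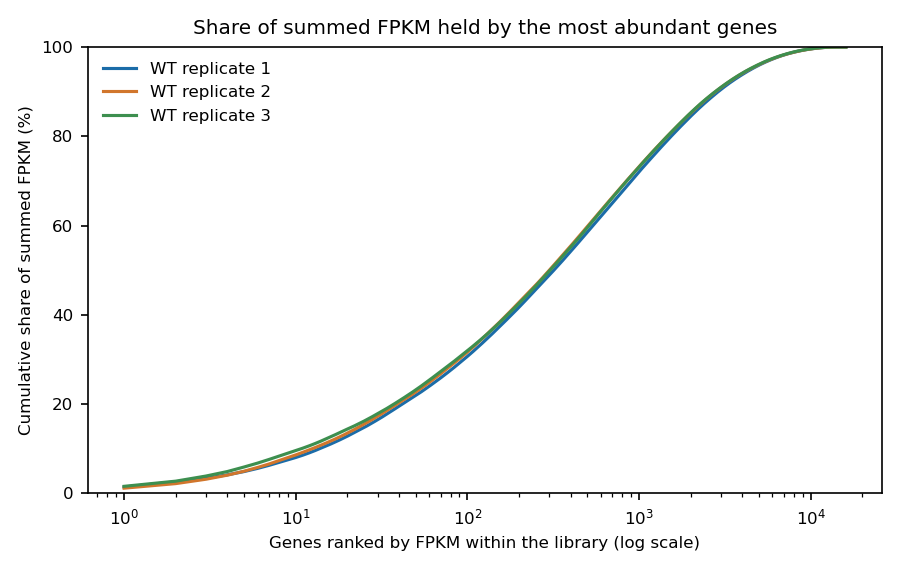
Cumulative share of summed FPKM (vertical axis, percent) against the rank of a gene by FPKM within its library (horizontal axis, log scale), 1 line for each WT library. The 3 lines run close together, from 12.8% to 14.3% at the 20 most abundant genes.

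Pluripotency genes stood at the top of the list. Dppa3 (chr6:122626424-122630271), also called Stella, which protects maternal DNA methylation in the early embryo, was the most abundant gene at 6052, 5528 and 8341 FPKM. Dppa5a (chr9:78367052-78368199), an RNA-binding protein of pluripotent cells, ranked behind Ftl1 at 4144, 5307 and 6119 FPKM. Together Dppa3 and Dppa5a held 2.23 ± 0.44% of all summed FPKM, and both were highest in replicate 3. Between them lay Ftl1 (chr7:45457944-45459886), the light chain of the iron store ferritin, at 7457, 6321 and 5328 FPKM. Ftl1 ran the other way, highest in replicate 1 and lowest in replicate 3, so that it was the leading gene of replicates 1 and 2 and Dppa3 that of replicate 3.

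Epithelial and cytoskeletal genes came next. Actb, the cytoplasmic beta actin, stood at 3375, 4570 and 6047 FPKM, lowest in replicate 1 and highest in replicate 3. Krt18 (chr15:102028216-102032026) and Krt8 (chr15:101996711-102004342) encode the keratin pair that forms the first intermediate filaments of the trophectoderm, and the 2 genes lie close together on chromosome 15. Krt18 stood at 2663, 2612 and 4637 FPKM and Krt8 at 2229, 2551 and 2756 FPKM. The Krt8 values lay within 1.24-fold of each other, whereas Krt18 stood apart in replicate 3, at 1.78 times its lowest library. Fabp3, a fatty acid carrier, stood at 2723, 4110.5 and 3923 FPKM, lowest in replicate 1. Pfn1, which loads actin monomers for assembly, stood at 2479, 2237 and 2796 FPKM. Sdc4, a heparan sulfate proteoglycan of the cell surface, stood at 1693, 2046 and 2378 FPKM. Of these 6 genes 5 were highest in replicate 3.

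The remaining leading genes served protein synthesis, folding, turnover and respiration. Hspa8, the constitutive Hsp70 chaperone, stood at 4000, 4945 and 4338 FPKM. Eef1a1, which brings aminoacyl-tRNA to the ribosome, stood at 2856, 3182 and 2452 FPKM. Rps2 (2443, 2768 and 1922 FPKM) and Rps18 (1793, 2421 and 1814 FPKM), proteins of the small ribosomal subunit, were, like Hspa8 and Eef1a1, highest in replicate 2. Of the 25 leading genes the chaperone Hsp90aa1 had the narrowest span, 1.02-fold. Cd63, a tetraspanin of late endosomes, stood at 2735, 3013 and 3362 FPKM, and Map1lc3b, which coats autophagosomes, at 2351, 2216 and 2712 FPKM. Ubb, a polyubiquitin gene, stood at 2223, 1603 and 2506 FPKM. All 3 of these turnover genes were highest in replicate 3. Rn18s-rs5, listed as a copy of 18S ribosomal RNA, stood at 3804, 4765 and 1744 FPKM. It was the only one of the 25 leading genes that differed by more than 2-fold between libraries, with replicate 3 low. The mitochondrial genes CYTB (3723, 3658 and 5328 FPKM), COX1 (3576, 3140 and 3175 FPKM) and ND1 (2737, 4228 and 2690.3 FPKM) completed the upper ranks, each with a different library highest.

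Promoters of the leading genes were read from RefSeq (GRCm38.p6), which matched 14 of the 25 genes and 7035 of the 9251 baseline genes (76.0%). The letters TATAAA, the core of the TATA box that positions RNA polymerase II, lay on the sense strand 40 to 20 bases before the start in 2 of the 14, Ppia and Sod1. Ppia, the folding enzyme cyclophilin A, stood at 2074, 2389 and 1830 FPKM. Sod1, the cytoplasmic superoxide dismutase, stood at 2326, 2171 and 1799 FPKM. Both were lowest in replicate 3. The last 60 bases before the start are shown for these 2 genes and, as examples without those letters, for the trophectoderm genes Fabp3 and Krt18. All 4 run 5′ to 3′ on the plus strand, at chr11:6415807-6415866, chr16:90220702-90220761, chr4:130308678-130308737 and chr15:102028156-102028215 in the order printed, and capitals mark TATAAA.
Ppia: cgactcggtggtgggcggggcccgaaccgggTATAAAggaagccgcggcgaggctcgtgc
Sod1: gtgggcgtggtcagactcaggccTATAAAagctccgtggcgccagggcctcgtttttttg
Fabp3: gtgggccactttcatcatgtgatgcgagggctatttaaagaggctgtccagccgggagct
Krt18: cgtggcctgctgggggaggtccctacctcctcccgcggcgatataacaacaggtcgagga
The first capital lies at -29 in Ppia and at -37 in Sod1, counted back from the base before the start. Only the exact letters TATAAA were sought, and letters close to them, as in the Fabp3 and Krt18 stretches, are not marked. A match is a description of letters and says nothing of a factor's binding.

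Over the whole baseline, promoter letters differed from those of the full RefSeq table. In the 250 bases before the start, on either strand, TATAAA was found in 6.72% of the 580 promoters of the 500 most abundant genes (95% Wilson interval 4.96 to 9.06%). It was found in 6.17% of baseline promoters (5.69 to 6.70%), in 9.86% of promoters of listed genes under 1 FPKM in all 3 libraries (8.79 to 11.05%) and in 12.4% of all 32851 promoters in the table (12.02 to 12.7%). At the TATA position alone, 40 to 20 bases before the start on the sense strand, the share was 1.55% for the 500 most abundant genes and 1.91% for all promoters, and these intervals overlapped (0.82 to 2.92% and 1.77 to 2.07%). For all baseline promoters it was 0.89% (0.71 to 1.10%), below the intervals of all promoters and of the low genes' promoters, at 2.34% (1.84 to 2.99%). The GC box letters GGGCGG were found in 57.2% of promoters of the 500 most abundant genes, 58.7% of baseline promoters, 38.2% of the low genes' promoters and 32.7% of all. A CpG frequency of at least 0.6 of that expected from base composition, a usual sign of a CpG island, was met by 77.9%, 69.5%, 33.6% and 34.0% of these sets. CCAAT was more even, at 41.4%, 36.9%, 35.0% and 33.85%. Baseline promoters thus held the CpG and GGGCGG features more often than those of low genes. Between the 500 most abundant genes and the whole baseline, the interval for CpG (74.4 to 81.1% against 68.6 to 70.5%) was the 1 of these that did not overlap. The 500 genes are part of the baseline, baseline promoters are part of the full table, and a gene can have several promoters. The sets and the promoters are thus not independent. The intervals cover counting error only, and whether they overlap is a description and not a test.

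Abundant genes were also compact. The median distance from gene start to gene end was 36.7 kb in the lowest decile of baseline genes by level and 8.13 kb in the highest, for protein-coding genes. Spearman's correlation of level with this distance was -0.35 across 8380 genes, which share libraries and are not independent replicates. FPKM divides by transcript length, which differs from the distance used here.

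The trophectoderm list held 25 listed genes, of which 22 were in the baseline (57.6% of all listed genes were). The median of the 22 was 39.8 FPKM, against 10.1 FPKM for all baseline genes. After Fabp3, Krt18 and Krt8 came Id2, an inhibitor of helix-loop-helix factors, at 308, 452 and 536 FPKM. Dppa1, a membrane protein of early embryos, stood at 120, 233 and 337 FPKM. Both were lowest in replicate 1 and highest in replicate 3, as were Krt8 and Gata3. Tead4, the DNA-binding partner of Yap and Taz in this lineage, stood at 26.9, 34.2 and 20.02 FPKM. Eomes, a T-box factor of trophoblast stem cells, stood at 5.82, 5.79 and 11.9 FPKM. Tfap2c, an AP-2 factor, was highest in replicate 1, at 46.3 FPKM against 24.1 and 25.7. Other trophoblast genes were low or at 0 in some libraries. Elf5, which maintains trophoblast stem cells, stood at 0.38, 1.03 and 1.82 FPKM, Ascl2 was at most 0.33 FPKM, and Hand1, needed for giant cells, was listed at 0 in all 3. Prl3b1, a hormone of later trophoblast, stood at 3.99, 0 and 4.58 FPKM.

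The epiblast list held 23 listed genes with 19 in the baseline (57.6% of all listed genes were), at a median of 47.6 FPKM. Below Dppa3 and Dppa5a came Dppa4, a chromatin protein of pluripotent cells, at 260, 270 and 207 FPKM. Tfcp2l1 (136, 119 and 96.7 FPKM) and Klf5 (140, 107 and 99.3 FPKM), transcription factors of naive pluripotency, and Spic (122, 84.3 and 58.9 FPKM), an Ets factor, were each highest in replicate 1 and lowest in replicate 3. Sall4, a zinc finger partner of Pou5f1, was even, at 41.2, 42.7 and 43.6 FPKM. Sox2, the DNA-binding partner of Pou5f1, was low, at 3.14, 2.23 and 1.18 FPKM, and Esrrb, an orphan receptor of naive cells, stood at 2.94, 3.602 and 1.28 FPKM. Fgf4, the signal by which epiblast cells instruct primitive endoderm, stood at 0.78, 2.51 and 0.27 FPKM and was outside the baseline. Nodal, which acts later in the epiblast, was listed at 0 in every library. Of the 6 listed genes of formative and primed epiblast, Dnmt3b (27.9, 34.8 and 32.0 FPKM) and Eomes were in the baseline, and T, the mesoderm factor, was listed at 0.

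The primitive endoderm list was the least complete of the 3, with 13 of 20 listed genes in the baseline (65%). That share is near the 57.6% of all listed genes, and the median of the 13 was 26.45 FPKM. Apoe, a lipid carrier, stood at 749, 424 and 497 FPKM and Apoa1, from the same class, at 148, 45.0 and 55.0 FPKM. Both apolipoprotein genes were highest in replicate 1. Dab2, an endocytic adaptor, stood at 124, 157 and 140 FPKM and Lrp2, the receptor it helps to internalise, at 66.3, 64.7 and 70.8 FPKM. Sparc (29.0, 39.2 and 47.3 FPKM), a matrix protein, and Serpinh1 (31.5, 55.6 and 51.8 FPKM), a collagen chaperone, were both lowest in replicate 1. Pdgfra, the receptor that marks the lineage early, stood at 6.05, 9.44 and 9.07 FPKM. Below Gata6 and Sox17, the other transcription factors of the list were near or under the threshold in most libraries. Gata4 stood at 0.96, 1.04 and 1.13 FPKM, Hnf4a at 2.40, 0.83 and 0.67 FPKM, and Sox7 at 0, 0.74 and 0.05 FPKM. Lama1, a basement membrane chain, stood at 0.25, 3.87 and 4.70 FPKM, so that it and Sox17 were both under 1 FPKM in replicate 1 and above it in replicates 2 and 3.

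**Figure D2:**
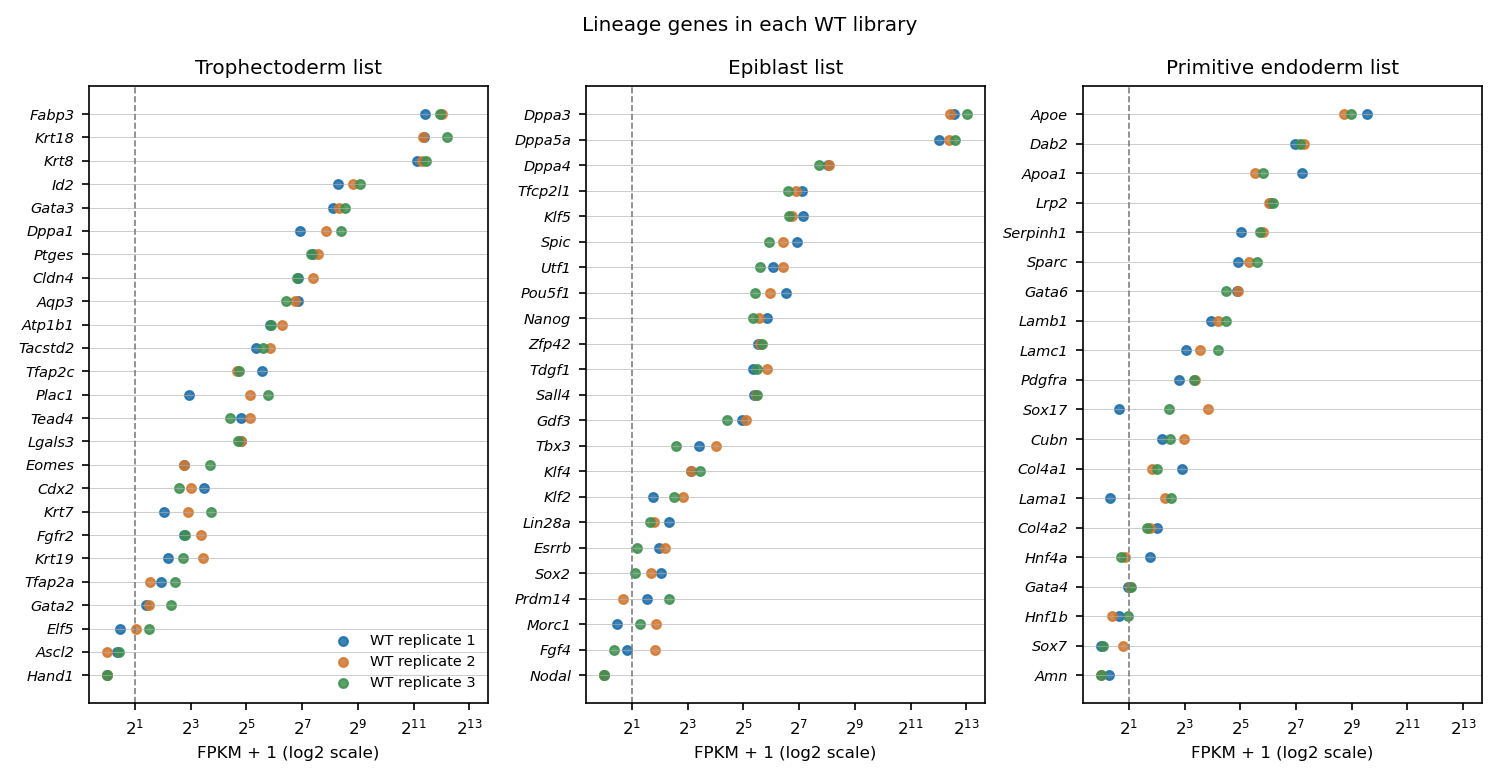
FPKM + 1 on a log2 scale for the listed genes of the trophectoderm, epiblast and primitive endoderm lists, 1 point for each WT library, with the dashed line at 1 FPKM. Fabp3 leads the trophectoderm list at 2723 to 4110.5 FPKM, Dppa3 the epiblast list at 5528 to 8341 FPKM and Apoe the primitive endoderm list at 424 to 749 FPKM, while Sox17 and Lama1 span 23.0-fold and 18.6-fold.

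The lists differed in which library was low. Of the 22 trophectoderm genes in the baseline 12 were lowest in replicate 1, 4 in replicate 2 and 6 in replicate 3. Over all baseline genes those shares were 31.5%, 30% and 38.4%. Of the 19 epiblast genes 5 were lowest in replicate 1, 2 in replicate 2 and 12 in replicate 3. Of the 13 primitive endoderm genes 7 were lowest in replicate 1, 4 in replicate 2 and 2 in replicate 3. Trophectoderm genes were highest in replicates 1, 2 and 3 in 4, 8 and 10 cases, and epiblast genes in 7, 7 and 5. The shares over all baseline genes were 34.9%, 30.1% and 35%. Counts of this size describe these libraries and were not tested.

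Paralogue choice was read in 75 families with at least 2 listed members, 293 members in all. The leader is the member with the highest mean FPKM, so its rank and share are a description. The same member led in all 3 libraries in 65 families and the leader changed in 10. The leader's lowest library lay above the highest library of the next member in 61 families (81.3%). Among all pairs of baseline genes 80.7% were separated in that way, so this share is no result about the families. Pairs separated in that way also keep their order in every library. The share of all pairs that keep their order was not computed, so the count of 65 is a description only. The leader held at least 90% of its family's summed FPKM in every library in 17 families and under 60% in every library in 14, and its median share was 77.0%. Of the 293 members 215 were in the baseline (57.6% of all listed genes were). Another 37 were under 1 FPKM in every library, as were 3922 of the 16070 listed genes.

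**Figure D3:**
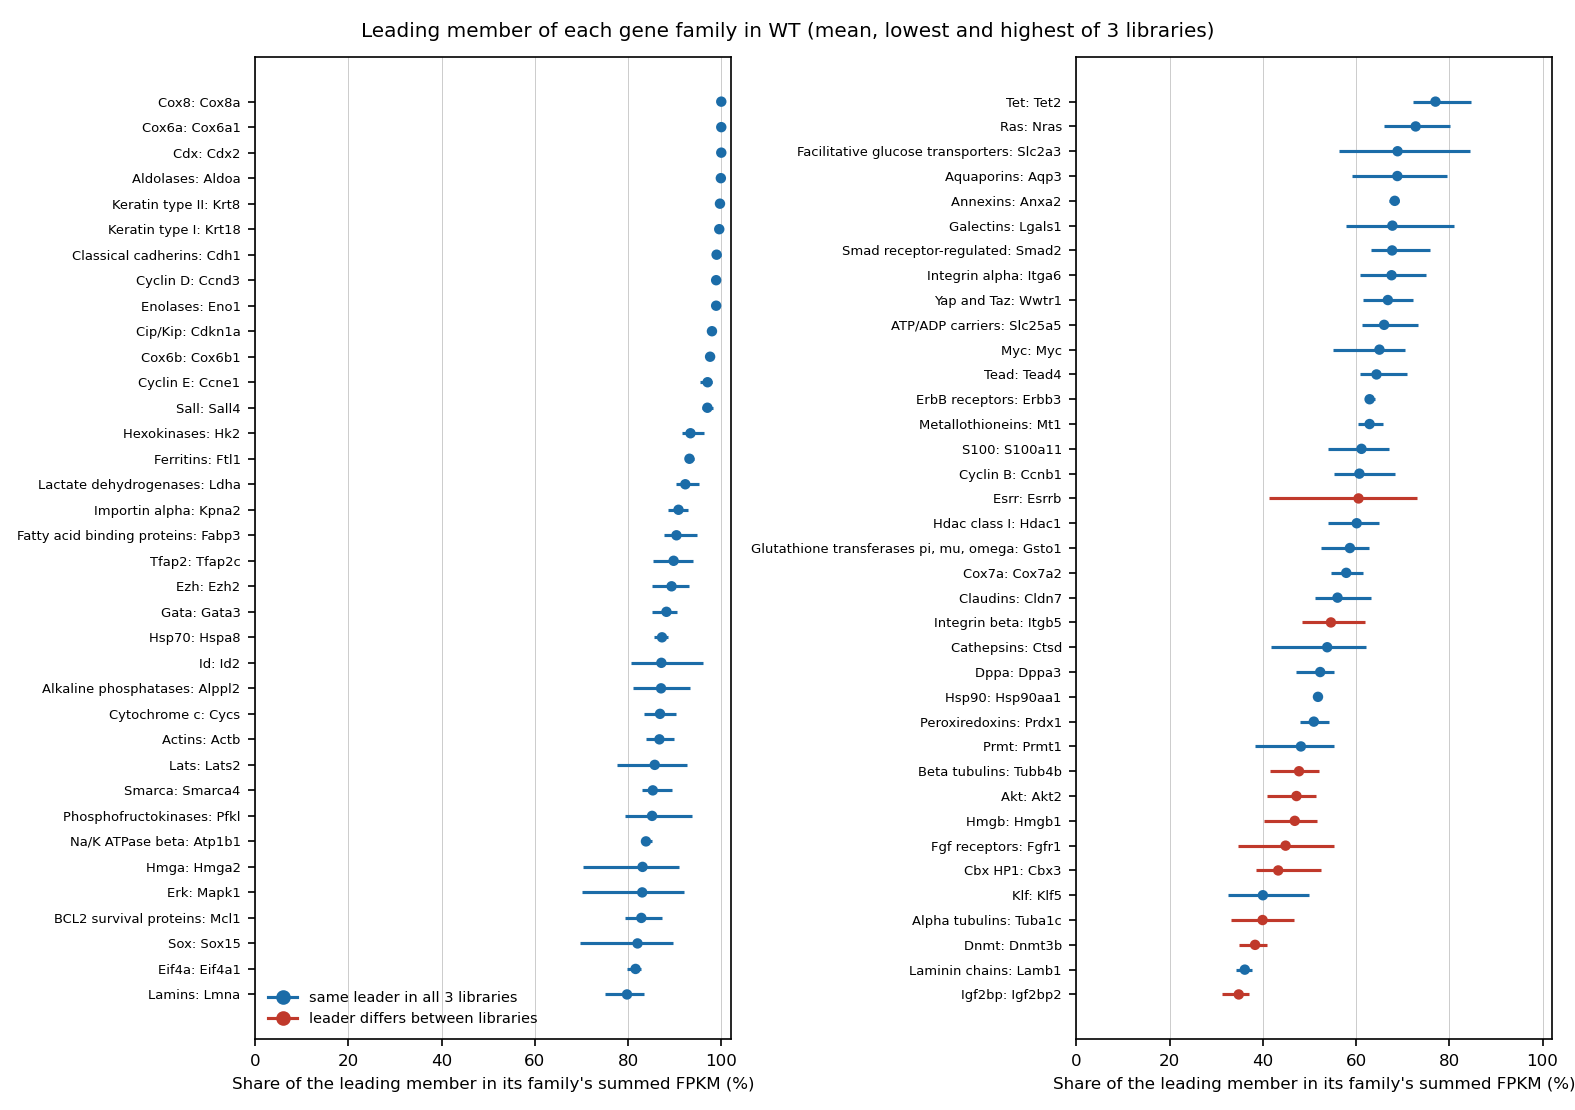
Share of the leading member in the summed FPKM of its family (percent), as the mean (point) and the lowest and highest of the 3 WT libraries (line), for 73 of the 75 families sorted by the mean. Blue families had the same leader in every library and red ones, 10 in number, did not, and mean shares run from 100% for Cdx2, Cox6a1 and Cox8a to 34.8% for Igf2bp2.

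Structural families of the epithelium were among the most one-sided. Krt8 held 99.7 ± 0.15% of type II keratin and Krt18 99.6 ± 0.36% of type I keratin. Their nearest relatives were Krt7, at 3.14, 6.42 and 12.2 FPKM, and Krt19, at 3.58, 9.77 and 5.60 FPKM, both present in every library, and the leaders were 346-fold and 523-fold higher by means. Cdh1, the E-cadherin of adherens junctions, held 99.0 ± 0.85% of its family at 63.9, 73.6 and 65.7 FPKM, while Cdh3 averaged 0.60 ± 0.68 FPKM. Tight junctions drew on several relatives. Cldn7 stood at 343, 369 and 247 FPKM, Cldn4 at 115, 168 and 112 FPKM, and Cldn6 at 66.8, 119.95 and 90.6 FPKM, all strand-forming claudins.

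Ion and solute transport, which fills the cavity, also had clear leaders. Atp1b1, the glycoprotein chain of the sodium pump, stood at 56.1, 76.9 and 58.4 FPKM, above Atp1b3 at 11.4, 11.6 and 11.3 FPKM. Aqp3, a water and glycerol channel, stood at 114, 105 and 84.8 FPKM, and Aqp8, a water channel, at 2.89, 33.3 and 28.0 FPKM. Slc2a3, the high-affinity glucose transporter, stood at 180, 119 and 180 FPKM, above Slc2a8 (54.2, 41.6 and 13.99 FPKM) and Slc2a1 (37.8, 49.999 and 18.8 FPKM). Slc2a8 and Slc2a1 were both lowest in replicate 3, and Slc2a3 in replicate 2.

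Among Hippo effectors Taz exceeded Yap. Wwtr1, which encodes Taz, stood at 19.7, 23.3 and 13.9 FPKM and Yap1 at 9.80, 8.96 and 8.73 FPKM. The paired log2 difference, on log2(FPKM + 1), was 0.95 ± 0.33 (SD, n = 3). Tead4 exceeded Tead2 (10.54, 19.8 and 11.2 FPKM) by 0.94 ± 0.29 on that scale. The 2 genes of each pair did not overlap, although Tead4 in replicate 3 (20.02 FPKM) and Tead2 in replicate 2 (19.8 FPKM) nearly met. Lats2, a kinase that restrains Yap, averaged 4.17 ± 0.41 FPKM and Lats1 0.72 ± 0.42 FPKM.

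Transcription factor families showed both patterns. Gata3 held 88.2 ± 2.7% of the Gata family, ahead of Gata6 and of Gata1, a factor best known from blood, at 16.9, 7.63 and 11.7 FPKM. Cdx2 was the only Cdx gene above 0, since the others of its family were listed at 0. Id2 exceeded Id3 (73.6, 79.6 and 20.4 FPKM), and Id3 was lowest in the library in which Id2 was highest. Sox15, a Sox factor of early embryos and muscle precursors, stood at 47.3, 40.3 and 46.0 FPKM and held 82.0 ± 10.7% of its family, far above Sox2. The Klf family was shared. Klf5 exceeded Klf6 (51.9, 82.7 and 97.5 FPKM), a zinc finger factor of many epithelia, by 0.60 ± 0.72 on the log2 scale, and in replicate 3 the pair differed little, at 99.3 and 97.5 FPKM. In the Myc family Myc stood at 5.91, 12.9 and 7.66 FPKM and Mycn averaged 4.13 ± 0.74 FPKM.

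Chromatin families ranged from level to one-sided. Dnmt3b stood beside Dnmt3l, the cofactor without its own activity, at 34.1, 32.6 and 23.6 FPKM, and the leader changed between libraries. The maintenance enzyme Dnmt1 stood at 9.77, 10.7 and 11.7 FPKM. Tet2 (23.6, 21.5 and 29.4 FPKM) exceeded Tet1 (8.20, 8.25 and 5.34 FPKM), both of which oxidise methylated cytosine. Ezh2, the methyltransferase of Polycomb complex PRC2, stood at 25.8, 35.0 and 41.0 FPKM and its relative Ezh1 averaged 4.02 ± 1.77 FPKM. Among arginine methyltransferases, the class that includes Carm1, Prmt1 led at 244, 91.9 and 145 FPKM, ahead of Prmt5 at 86.3, 61.0 and 58.5 FPKM. All 8 listed members of this family were in the baseline (57.6% of all listed genes were). Prmt1 was 2.66 times as high in replicate 1 as in replicate 2. Hmgb1 and Hmgb2, and Cbx3 and Cbx1, changed places between libraries.

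Cell cycle families had strong leaders. Ccnd3, a G1 cyclin, stood at 146, 147 and 73.5 FPKM and held 98.9 ± 0.37% of the D cyclins, with Ccnd2 at 0.80 ± 0.44 FPKM. Ccne1 stood at 108, 79.3 and 64.2 FPKM and held 97.1 ± 1.5% of the E cyclins. Cdkn1a, the p21 inhibitor of cyclin-dependent kinases, was even, at 128, 127 and 113 FPKM, and held 98.0 ± 0.23% of its family. The mitotic cyclins were shared, with Ccnb1 at 535, 426 and 454 FPKM and Ccnb2 at 248, 301 and 367 FPKM.

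Metabolic families mostly had 1 dominant gene. Hk2, the first enzyme of glycolysis, stood at 52.6, 45.5 and 105 FPKM and held 93.4 ± 2.5% of the hexokinases. Aldoa (466, 387 and 277 FPKM) held 99.9 ± 0.08% of the aldolases, and Eno1 (329, 235 and 294 FPKM) 98.9 ± 0.73% of the enolases. Ldha, which reduces pyruvate to lactate, stood at 29.7, 37.2 and 14.7 FPKM, with Ldhb at 1.46 ± 0.85 FPKM. Of the 15 listed glycolysis genes 11 were in the baseline (57.6% of all listed genes were), 7 of them lowest in replicate 3 (38.4% of all baseline genes were), and Hk2 and Pgk1 (54.5, 62.4 and 80.8 FPKM), an ATP-forming enzyme, were the 2 highest there. Cox6b1, a respiratory chain subunit, averaged 845 ± 234 FPKM and its germ cell relative Cox6b2 20.6 ± 6.7 FPKM. Cox6a2 and Cox8c, known from other tissues, were listed at 0 beside Cox6a1 (1012 ± 208 FPKM) and Cox8a (841 ± 179 FPKM). Cycs, somatic cytochrome c, stood at 84.2, 110.1 and 127 FPKM, with Cyct, the testis form, at 12.8, 11.8 and 25.2 FPKM.

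Stress and storage families ranged from one-sided to level. Ftl1 held 93.2 ± 0.86% of ferritin, with Fth1, the heavy chain, at 607, 483 and 332 FPKM. Both ferritin chains fell in the same order, replicate 1 highest and replicate 3 lowest. Hsp90aa1 (2222, 2171 and 2184 FPKM) and Hsp90ab1 (2045, 1962 and 2109 FPKM), the cytoplasmic Hsp90 chaperones, were nearly level, at 51.8 ± 0.85% for the leader, and still did not overlap. Gsto1, a glutathione transferase of the omega class, stood at 1655, 1279 and 1159 FPKM, and Mt1, a metal-binding protein, at 800, 1311 and 1168 FPKM. Lgals1, a galectin, stood at 197, 228 and 607 FPKM, with replicate 3 far above the other two. Fragments shared by near-identical genes, such as actins, tubulins, ferritins, ribosomal proteins and Gstp1 with Gstp2, could have been split between them in ways these values do not show. The Dppa genes carry a common name but are not 1 gene family, and Dppa3 and Dppa5a overlapped.

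Signalling genes stood at modest levels. The medians of the baseline members ran from 3.11 FPKM for Notch to 7.51 FPKM for FGF in 6 of the 7 signalling lists, against 10.1 FPKM for all baseline genes. The insulin and IGF list had a median of 22.7 FPKM, but 3 of its 4 baseline members (Igf2bp1, Igf2bp2 and Igf2bp3) are RNA-binding proteins. In LIF signalling, which sustains pluripotency, 6 of 12 listed genes were in the baseline (57.6% of all listed genes were). Stat3, its effector, stood at 29.3, 45.6 and 50.1 FPKM, Lif itself at 1.40, 1.56 and 3.01 FPKM, and the shared receptor chain Il6st at 1.17, 1.30 and 0.25 FPKM. In FGF signalling 19 of 24 were in the baseline. Fgfr1 stood at 10.4, 9.09 and 4.05 FPKM and Fgfr2 at 5.71, 9.44 and 5.94 FPKM, so that the leading receptor differed between libraries. The kinases Map2k2 (56.3, 45.3 and 31.2 FPKM) and Map2k1 (30.2, 31.3 and 28.2 FPKM) were above both receptors.

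In BMP and activin signalling 10 of 17 listed genes were in the baseline (57.6% of all listed genes were). Bmpr1a led among receptors, at 7.57, 8.40 and 5.58 FPKM. The ligand Bmp7 stood at 0.67, 0 and 0.37 FPKM. In WNT signalling 14 of 21 were in the baseline, ligands among them. Wnt7b stood at 8.60, 8.84 and 4.29 FPKM and Wnt3a at 6.51, 5.70 and 5.98 FPKM, above the receptor Fzd5 at 2.05, 2.01 and 2.06 FPKM. Ctnnb1, the beta-catenin effector, was even at 66.1, 66.4 and 70.4 FPKM. Both ligands were thus in the baseline with a receptor and the effector, while Axin2, a common target of the pathway, was at most 0.87 FPKM.

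Growth factor lists were short. Igf2r, which clears Igf2, stood at 10.7, 13.97 and 9.81 FPKM and Igf2 at 0.99, 1.81 and 0.97 FPKM, in a list with 4 of 6 in the baseline, of which Igf2r was the only receptor or ligand. Among EGF receptors and ligands 3 of 5 were in the baseline (57.6% of all listed genes were). Erbb3 stood at 14.7, 14.4 and 8.45 FPKM, Erbb2 at 8.96, 8.63 and 3.66 FPKM and the ligand Hbegf, which acts in attachment to the uterus, at 5.24, 2.41 and 4.33 FPKM. Egfr was listed at 0 in 2 libraries and stood at 1.09 FPKM in replicate 3. In Notch signalling 6 of 12 were in the baseline. The effector Rbpj led at 9.32, 11.8 and 6.56 FPKM, the ligand Dll3 stood at 3.53, 1.56 and 1.37 FPKM and the receptor Notch2 at 1.10, 1.67 and 2.60 FPKM.

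The spread between the WT libraries was modest for most genes. The highest library was less than 1.5 times the lowest in 51.8% of baseline genes, and the median ratio was 1.48. In 1811 genes (19.6%) it was at least 2-fold, in 185 at least 4-fold and in 10 at least 10-fold. Pearson's r of log2(FPKM + 1) across baseline genes, which are not independent replicates, was 0.975 for replicates 1 and 2, 0.961 for 1 and 3 and 0.968 for 2 and 3. Replicates 1 and 2 differed by at least 2-fold in 7.38% of genes, 1 and 3 in 12.01% and 2 and 3 in 9.66%. Of the 1811 wide genes 831 were lowest in replicate 3, 542 in replicate 1 and 438 in replicate 2. Over all baseline genes those shares were 38.4%, 31.5% and 30%.

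Low genes were spread more widely. The share of genes at least 2-fold apart was 35.8% in the second decile by level (means of 2.27 to 3.33 FPKM) and 4.65% in the highest decile (110 FPKM and above). In the lowest decile it was 24.0%, where the rule of 1 FPKM in every library also limits how far a gene can range. Of the listed lineage genes in the baseline, 8 of 22 trophectoderm, 6 of 19 epiblast and 3 of 13 primitive endoderm genes were at least 2-fold apart. The share over all baseline genes was 19.6%. Folding and translation genes showed none, 0 of 23 and 0 of 8. Their levels were higher, at medians of 291 and 474 FPKM. Both medians fall in the highest decile, where the share was 4.65%, so these counts are no result about the lists.

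**Figure D4:**
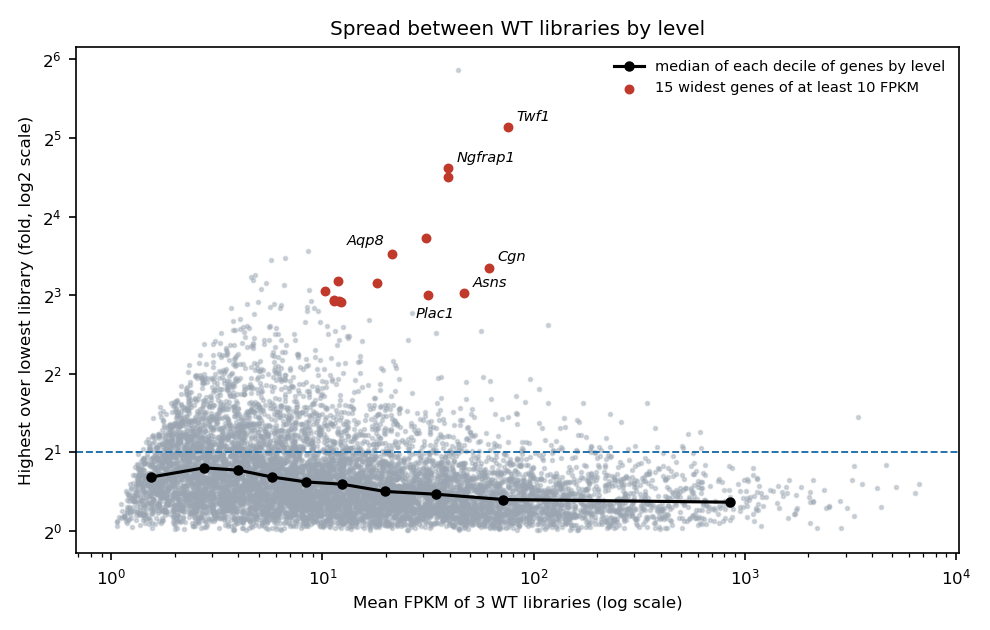
Highest over lowest WT library (vertical axis, fold on a log2 scale) against mean FPKM (horizontal axis, log scale), 1 point for each of 9251 baseline genes, with the median of each decile of genes by level in black, the 15 widest named genes (by SD of log2 values) in red and the dashed line at 2-fold. The median falls from 1.74 in the second decile to 1.29 in the highest, and Twf1 leads the red genes, while the grey point above it carries an accession-like symbol that the naming rule leaves out.

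Named genes of at least 10 FPKM at the wide end spanned 7.54-fold to 35.3-fold between libraries. Twf1, which caps actin filaments, stood at 6.03, 7.41 and 213 FPKM. Rpp38, a subunit of RNase P, stood at 6.95, 6.02 and 79.8 FPKM, so that replicate 3 alone was high for both. Cgn, the tight junction protein cingulin, stood at 10.3, 68.8 and 105 FPKM, and Asns, which makes asparagine and responds to amino acid shortage, at 8.71, 61.2 and 70.7 FPKM. Plac1, an X-linked placental gene, stood at 6.71, 33.9 and 53.9 FPKM. In these 3, as in Aqp8, replicate 1 was low and the other two were closer together. Of the 15 widest genes 9 were lowest in replicate 1 and 9 were highest in replicate 3. Over all baseline genes those shares were 31.5% and 35%. Of the 1811 genes at least 2-fold apart, 542 were lowest in replicate 1 and 581 highest in replicate 3. Among the 15, Stmn3, a microtubule regulator, was highest in replicate 1, at 27.1, 2.98 and 5.34 FPKM.

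A neighbouring pair on the X chromosome varied together. Ngfrap1 (chrX:136270253-136271978), also called Bex3, stood at 3.39, 31.3 and 83.3 FPKM. Wbp5 (chrX:136245080-136247139), from the related Tceal group, stood at 3.43, 36.9 and 77.5 FPKM. The 2 genes lie 23.1 kb apart, and their values were close within each library while they spanned 24.6-fold and 22.6-fold between libraries. Of the 15 widest genes 4 were X-linked (Ngfrap1, Wbp5, Plac1 and Magea5), while 2.68% of the 4434 genes from which they were ranked were X-linked. They were chosen for their spread, so this count is a description.

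At the narrow end the libraries were nearly equal. Sae1, which activates SUMO, stood at 106.0, 106.5 and 105.9 FPKM. Snrpn, a splicing protein from an imprinted locus, stood at 149.5, 148.5 and 148.5 FPKM. Ybx1, an mRNA-binding protein, stood at 161, 160.2 and 160.0 FPKM. Paics, of purine synthesis, stood at 161, 163 and 162 FPKM. The 15 narrowest genes spanned at most 1.02-fold over the libraries.

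Several function lists had the same library lowest for most of their baseline members, the actin cytoskeleton list among them. Of the 22 actin cytoskeleton genes in the baseline 16 were lowest in replicate 1 (31.5% of all baseline genes were) and 17 were highest in replicate 3 (35% of all). Their summed FPKM, with the 2 listed genes outside the baseline, was 11506, 13163 and 15812. Besides Actb, the myosin light chain Myl12a stood at 115, 123 and 268 FPKM. Capg, which caps filaments, stood at 238, 248.7 and 420.2 FPKM, and Arpc5, of the Arp2/3 complex, at 166, 198 and 290.03 FPKM. Another 4 (Cfl1, Arpc1b, Arpc3 and Ezr) were lowest in replicate 3, among them Cfl1, which severs filaments, at 749, 771 and 628 FPKM. The summed trophectoderm list was also lowest in replicate 1 and highest in replicate 3 (8949.6, 11033 and 13193 FPKM). The summed epiblast list had the same order (11258, 11830 and 15240 FPKM) but was mostly Dppa3 and Dppa5a. Of its 19 baseline genes 12 were lowest in replicate 3 (38.4% of all). The summed primitive endoderm list was highest in replicate 1 (1222, 883 and 952 FPKM). Its leading gene Apoe stood at 749, 424 and 497 FPKM, while 7 of its 13 baseline genes were lowest in replicate 1 (31.5% of all). The part of cell type in the actin result was not tested. Of the 8 translation elongation genes 6, and of the 20 lysosomal genes 12, were lowest in replicate 3 (38.4% of all). Of the 23 protein folding genes in the baseline 12 were highest in replicate 1 (34.9% of all) and 12 were lowest in replicate 2 (30% of all).

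X-linked genes were in the baseline less often than autosomal ones, and their median level was below the median of all autosomal genes. Of 592 listed X-linked genes 267 (45.1%) were in the baseline, against 54.0 to 62.5% for single autosomes. Their median level over that of all autosomal baseline genes was 0.73, 0.84 and 0.93 in replicates 1, 2 and 3, or 0.83 ± 0.10. With a threshold of 5 FPKM this ratio was 0.95. Single autosomes ranged from 0.72 to 1.28 in replicate 1, so the X chromosome lay within their range in each library, with 1, 3 and 4 of the 19 autosomes below it. X-linked genes were lowest in replicate 1 in 43.4% of cases, against 25.7 to 37.9% for single autosomes, and highest in replicate 3 in 45.7%. The share of X-linked genes at least 2-fold apart was 19.9%, within the autosomal range of 16.1 to 23.5%.

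**Figure D5:**
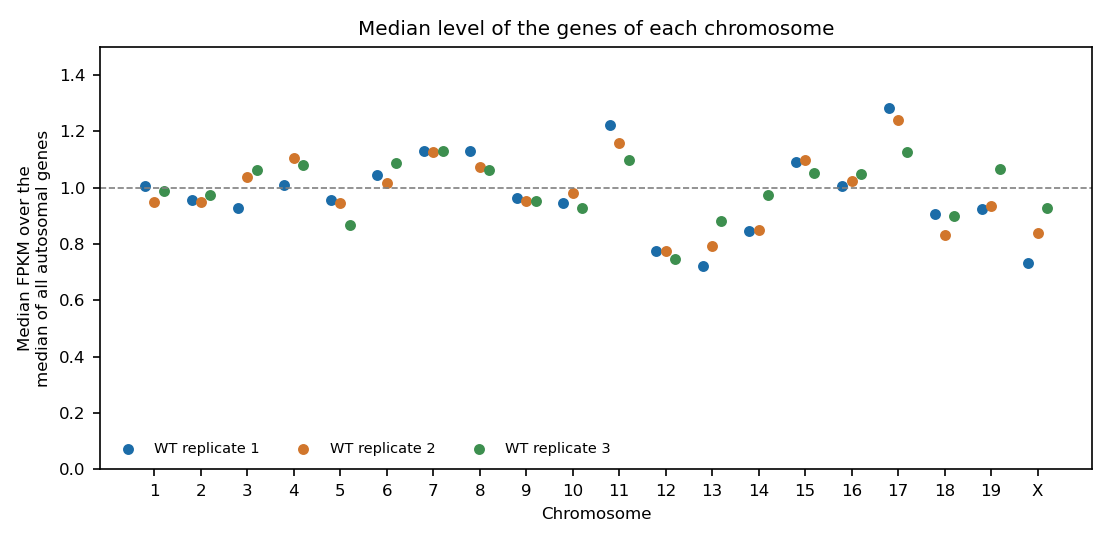
Median FPKM of the baseline genes of each chromosome over the median of all autosomal baseline genes (vertical axis, ratio), 1 point for each WT library. The X chromosome lies at 0.73, 0.84 and 0.93, while chromosome 12 lies between 0.75 and 0.77 and chromosome 17 above 1 in all 3 libraries.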

How the data were processed

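The deposited values are FPKM in 1 table with a column for each library, made by the authors. Per the submitters' processing notes, the tools include Bowtie 0.12.2, and GRCm38 and mm10 are named as builds, with no step assigned. The program that computed FPKM is not given in the sources used here, nor are its annotation and filters. Depth is unknown, since low values showed no steps worth 1 read, so no counting interval on a level is given. FPKM depends on the assumed transcript and on the other genes of a library, so summed FPKM differs between libraries (521143, 541116 and 527514).

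WT libraries were grouped by title, and the 6 edited libraries were not used. From the FPKM were computed means, SDs, highest over lowest library, SD of log2(FPKM + 1), ranks within families and shares, with Python 3.11.15, pandas 2.3.3, numpy 2.4.6, scipy 1.17.1 and matplotlib 3.10.9. The scripts were tested on simulated data. A paired exact permutation test over 3 libraries cannot go below a two-sided p of 0.25, so none was run. Gene positions, classes and promoters are from RefSeq GRCm38.p6, matched by symbol or identifier, and intervals on promoter shares are Wilson intervals at 95%.

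Members, lists and families were chosen with earlier results of these data known. The rule named the 25 most abundant genes, the 6 markers, leading members of lists and families, and the 15 widest and 15 narrowest genes of at least 10 FPKM by SD of log2(FPKM + 1), without predicted gene models. Other genes named were picked from the same lists after their values were seen. Of 80 families, 5 with 1 listed member were left out, and genes of a list without a row are not analysed here. Some genes that the rule names are left out of the text and the plot of families. Alternatives changed the threshold, pseudocount, scaling, number of leading genes and libraries used.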

Additional observations from a re-analysis of the deposited data

How the results depend on the processing

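No paired analysis was possible because only the WT group is described and no groups were compared. Of 35 alternatives 24 left a value within its limit and 11 moved it. The baseline held 5601 genes with a threshold of 5 FPKM, where the share of genes at least 2-fold apart was 9.11% and the median level of X-linked over autosomal genes 0.95 (0.78 with a threshold of 0.5 FPKM). Leaving out 1 replicate gave a share 2-fold apart of 7.94% (without replicate 3) to 12.2% (without replicate 2), against 19.6% with 3 libraries, as a range over fewer libraries is narrower by construction. The median SD of log2 values was 0.26, 0.29 with a pseudocount of 0.1 FPKM, 0.18 with one of 5 FPKM, and 0.18 to 0.23 with 1 replicate left out. The share of promoters with TATAAA among the 500 most abundant genes was 6.72% and fell to 1.55% at the TATA position on the sense strand, a setting chosen after seeing the data. The count of families with 1 leader was 67 to 71 with a replicate left out, and scaling by median of ratios or quantiles gave 19.4% and 19.2% of genes 2-fold apart. With 3 libraries of unknown depth, the spread of genes near 1 FPKM cannot be divided into counting error and other differences between libraries.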

Other observations

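The 13 protein-coding genes of the mitochondrial genome, which is transcribed as long precursors, were listed at 2 levels. ND1, ND2, COX1, ND4, ND5, ND6 and CYTB stood between 97.1 and 5328 FPKM in every library. COX2, ATP8, ATP6, COX3, ND3 and ND4L stood between 1.36 and 11.1 FPKM. ATP6, a subunit of ATP synthase, stood at 4.36, 4.33 and 4.37 FPKM, and COX2, a subunit of cytochrome oxidase beside COX1, at 3.805, 4.06 and 3.37 FPKM. The 6 low genes are neighbours in the genome, from 7013 to 10173 of the mitochondrial sequence in GRCm38.p6, between COX1 and ND4. The low level was seen in all 3 libraries, and its cause was not tested. The contrast was picked out after its values were seen.

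Long non-coding RNAs were 233 of the 9251 baseline genes. Their share among all listed genes was not computed, so this count is a description only. They were ranked without predicted gene models. Platr14, named for its pluripotency-associated expression, led the ranked ones at 80.0, 94.1 and 158 FPKM. Malat1, a nuclear RNA of many tissues, stood at 55.9, 60.9 and 92.3 FPKM, and Lncenc1, a transcript of naive embryonic stem cells, at 47.6, 39.6 and 54.7 FPKM. All 3 were highest in replicate 3. Of the 8 most abundant ranked ones, 5 were small nucleolar RNA hosts (Snhg6, Snhg5, Snhg15, Snhg1 and Snhg3), at means of 37.6 to 56.4 FPKM. All 8 had means above the upper quartile of the baseline, 34.5 FPKM.

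Some genes missed the baseline through 1 or 2 libraries while high in another. Tmsb4x, the actin-binding thymosin beta 4 encoded on the X chromosome, stood at 0.58, 137 and 14.6 FPKM, whereas its relative Tmsb10 stood at 145, 246 and 259 FPKM. Dvl3, a WNT adaptor, stood at 0.18, 0.18 and 21.8 FPKM. Sohlh2, a germ cell transcription factor, stood at 11.8 and 10.1 FPKM in replicates 1 and 2 and was listed at 0 in replicate 3. These were chosen after their values were seen.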
